A study of Rattus norvegicus with 12 samples.

Results

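Chemokine ligands are small secreted proteins that draw leukocytes along a gradient by binding G protein-coupled receptors on their surface. A total of 10 were followed here, chosen as a list by name: Ccl2, Ccl5, Ccl19, Ccl20, Ccl21, Cxcl1, Cxcl10, Cxcl12, Cxcl13 and Cx3cl1. They were found on the array through the gene symbol, accession or description of each probe, which gave 11 probes (2 for Ccl20, 1 for each other gene) of 33849 gene probes, or 10 of 12722 named genes. The arrays held biotin-labelled cRNA from whole kidneys of male Fischer 344 rats. The 3 groups had 4 one-colour arrays each. The first group was rats of 24 months on caloric restriction (CR), which had been restricted by 10% from week 10, by 25% from week 15 and by 40% from 4 months on. The second was rats of 24 months fed freely (ad libitum, AL), and the third was young rats of 4 months, whose labels name no restriction. All rats came from one colony, were anaesthetised with ketamine and xylazine, and had their kidneys snap frozen without any injury or drug being named. The study's title sets the arrays in the context of the aged kidney's susceptibility to ischemic injury.

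The list spans several roles. Ccl19 and Ccl21 are the ligands of Ccr7 and guide T cells and mature dendritic cells into lymphoid tissue, while Cxcl13 guides B cells into follicles through Cxcr5. Cxcl12, made by stromal cells, holds leukocytes and progenitors in tissue through Cxcr4. Ccl2 draws monocytes through Ccr2, Ccl5 draws T cells and monocytes, and Cxcl10, an interferon-induced ligand, draws activated T cells through Cxcr3. Ccl20 draws cells that carry Ccr6, Cxcl1 draws neutrophils through Cxcr2, and Cx3cl1 is a membrane-bound ligand of Cx3cr1 that proteases can release. In kidney, inflammatory ligands are known to be made by tubule, endothelial and resident immune cells, and lymphoid ligands are known from tertiary lymphoid structures of aged or chronically inflamed kidneys. In a whole-kidney sample, fewer cells of a type and less RNA per cell cannot be told apart.

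RefSeq promoter windows (build GRCr8) were matched for 8 of the 10 genes; Ccl2 and Ccl5 had no entry. Each window shown holds 120 bases and runs 5′ to 3′ on the gene's strand, in lower case, with bases counted back from the annotated start of the gene. Capitals mark matches to the NF-κB consensus or to GAAANNGAAA, the core of the interferon-stimulated response element, on either strand. The windows of Ccl19 and Ccl21 are shown because these genes had large differences between old and young kidneys, and those of Ccl20, Cxcl1 and Cxcl10 because they hold the NF-κB consensus.
Ccl19, chr5:61761165-61761284, minus strand, bases -120 to -1: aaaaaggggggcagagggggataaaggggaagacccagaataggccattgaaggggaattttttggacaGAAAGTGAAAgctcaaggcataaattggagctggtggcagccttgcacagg
Ccl21, chr5:61777516-61777635, minus strand, bases -120 to -1: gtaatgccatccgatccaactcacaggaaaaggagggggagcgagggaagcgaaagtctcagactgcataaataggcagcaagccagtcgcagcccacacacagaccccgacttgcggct
Ccl20, chr9:91837039-91837158, plus strand, bases -120 to -1: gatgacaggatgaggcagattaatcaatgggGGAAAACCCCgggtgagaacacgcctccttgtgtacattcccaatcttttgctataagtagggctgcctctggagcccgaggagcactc
Cxcl1, chr14:17479322-17479441, minus strand, bases -120 to -1: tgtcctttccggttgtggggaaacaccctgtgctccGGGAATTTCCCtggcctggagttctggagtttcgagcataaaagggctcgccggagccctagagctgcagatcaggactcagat
Cxcl10, chr14:15988866-15988985, plus strand, bases -200 to -81: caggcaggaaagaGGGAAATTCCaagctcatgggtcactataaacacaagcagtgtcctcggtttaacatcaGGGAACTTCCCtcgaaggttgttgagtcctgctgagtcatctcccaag
The NF-κB consensus was present in the 250 bases before the start of Ccl20, Cxcl1 and Cxcl10, against 6.33% of 33469 promoters searched the same way. The 2 matches of Cxcl1, on opposite strands, overlap, as do 2 of the 3 matches of Cxcl10. GAAANNGAAA was present before Ccl19 (bases -51 to -42) and before Cxcl10 (bases -243 to -234, upstream of the window shown), against 3.41% of promoters. TATAAA was present before Cxcl10, Cxcl13 and Cx3cl1, against 12.9% of promoters. None of these letters was found in the windows of Ccl21 or Cxcl12. A match is a description of the letters, and no binding was measured. Among the protein-coding genes of the same annotation, Ccl19 and Ccl21 lie on chromosome 5 with a single locus between them. Cxcl10 lies between Cxcl11 and Cxcl9 on chromosome 14, Cx3cl1 between Ccl17 and Ccl22 on chromosome 19, and Ccl2 next to Ccl7 on chromosome 10. Loci that are not protein-coding were not counted. Whether the Ccl21 probe also binds RNA of near-identical neighbouring loci was not tested.

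All 10 ligands were measurable on these arrays. Of 132 spots of the 11 probes, 131 were good by the scanner's quality flag and 1, of the first Ccl20 probe on CR array 2, was marked as contaminated and left out of the fits. None was below background or saturated. Values are quantile-normalised spot intensities in scanner units, given for arrays 1 to 4 of a group in turn, and intensities of different probes are not compared. Differences are log2 differences, and a difference was called where limma's adjusted p over 25398 tested probes was below 0.05 in the fit over 12 arrays.

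The submitters describe the 4 samples of each group as biological replicates, and nothing in the sources used here tells whether any of them share animals or RNA. Some arrays within a group differed by no more than repeat spots do on the array where those spread most. The spread of log2 differences (robust SD over 9828 bright probes) was 0.0897 to 0.137 within these sets, against 0.1615 to 0.3606 between the other arrays of a group. Between repeat spots it was 0.1505 on CR array 4, which set the limit, and 0.0863 to 0.1252 on the other arrays. Several joined pairs exceeded the repeat spots of both their own arrays, such as CR arrays 1 and 3 (0.1275, against 0.1195 and 0.1251). The sets were CR arrays 1 and 3, CR arrays 2 and 4, all 4 AL arrays, young arrays 1 and 2, and young arrays 3 and 4. In a second fit each set was counted as 1 sample, which leaves 5 samples: 2 CR, 1 AL and 2 young. The standard error (SE) of every difference comes from the fit over these 5 samples, where the lone AL sample is assumed to vary like the other groups, and the adjusted p of that fit is given beside or after that of the 12 arrays. If arrays of a set share their RNA, the p-values over 12 arrays measure only the spread between arrays. All AL arrays were scanned in a session of their own, before the others, so AL and scan cannot be told apart, and no slide series held both AL and young arrays. Kidney markers were above background in every group: the summed intensity of 3 thick limb and distal tubule genes was 38350 to 40120 in CR, 25410 to 29770 in AL and 29930 to 33490 in young kidneys. The share of probes above background was 72.8 to 75.7% on CR arrays, 72.5 to 74% on AL arrays and 64.4 to 71.4% on young arrays.

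In freely fed old kidneys, 7 of the 10 ligand genes rose relative to young kidneys (Ccl21, Ccl5, Ccl19, Ccl2, Ccl20, Cxcl10 and Cxcl1), none fell and 3 (Cxcl12, Cxcl13 and Cx3cl1) did not pass. In this comparison 48.1% of all probes were called in either direction, with 24.9% of named genes higher and 25.4% lower. The median difference was 0.99 for the 10 ligands and -0.05 for all tested probes. Counted over 5 samples, limma called 0 of the 10 ligands in this comparison, 4 had an unadjusted p below 0.05, and 0.114% of probes were called (0.0787% higher and 0.0354% lower). In CR kidneys relative to AL kidneys, Cxcl13 rose, Ccl5 fell and 8 ligands did not pass, where 13.4% of probes were called, with 5.61% of named genes higher and 6.72% lower. The median difference was -0.17 for the ligands and 0.01 for all probes. Both ligand calls were lost over 5 samples, as were those of all other probes. When either young sample was left out of the shared fit, 6 ligands were called between CR and AL kidneys, 2 higher and 4 lower; without CR arrays 1 and 3, 1 was called. In CR kidneys relative to young kidneys, 5 ligands rose (Ccl21, Ccl19, Ccl5, Ccl2 and Cxcl13) and none fell, where 44.3% of probes were called, with 22% of named genes higher and 24.8% lower. The median was 0.63 for the ligands and -0.02 for all probes. Over 5 samples 3 of these (Ccl21, Ccl19 and Ccl5) were called, where 0.91% of probes were (0.701% higher and 0.209% lower). The 3 comparisons share groups: the AL arrays stand in the first 2, the young arrays in 2 and the CR arrays in 2.

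**Figure D1:**
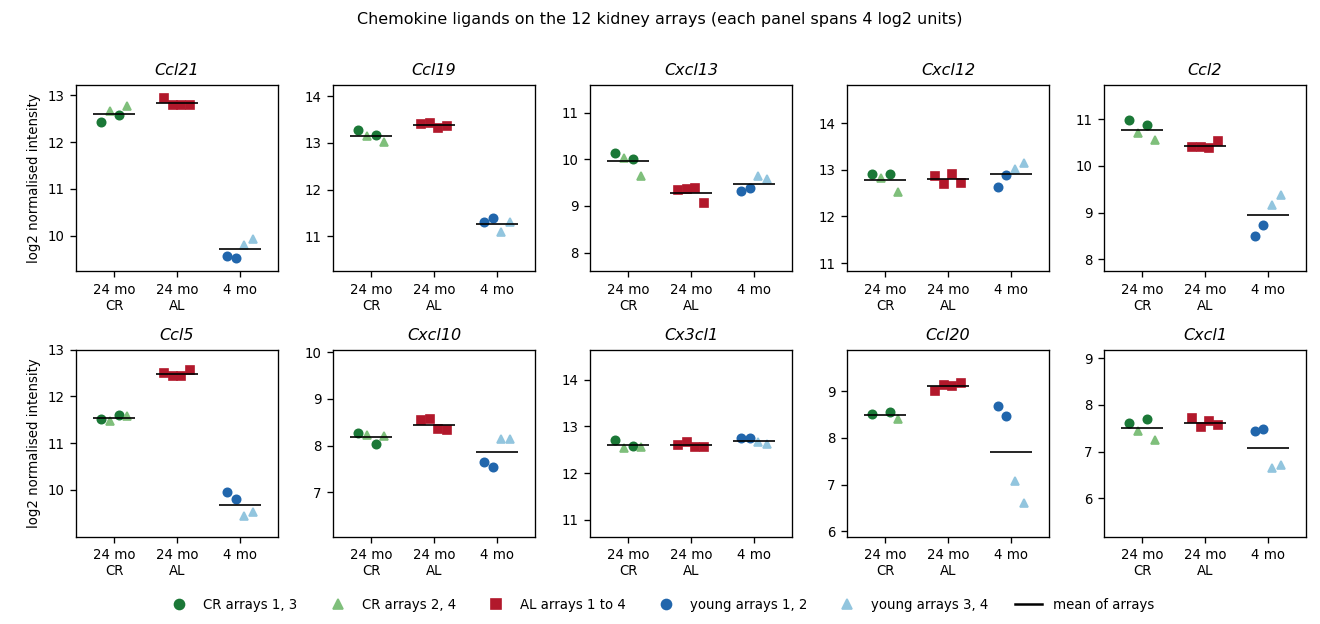
Log2 normalised intensity of the 10 chemokine ligands on each array (for Ccl20, the first probe), with CR, AL and young (4 mo) groups from left to right, colour and shape marking arrays that count as 1 sample, and a black line at the mean of the arrays. Each panel spans the same range of log2 units on its own level. Ccl21, Ccl19, Ccl5 and Ccl2 are higher on all 8 old arrays than on all 4 young arrays, and the 2 pairs of young arrays lie furthest apart for Ccl20 and Cxcl1.

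The lymphoid ligand Ccl21 had the largest difference between AL and young kidneys among the 10. Its intensity was 5501, 6550, 6085 and 7039 on the CR arrays, 7907, 7102, 7111 and 7102 on the AL arrays, and 756.7, 733.9, 896.8 and 975.7 on the young arrays. The old and young arrays were far apart, and AL array 1 stood above the other AL arrays, which lay within 10 intensity units of each other. The difference between AL and young kidneys was 3.13 ± 0.25 on the log2 scale (SE), an 8.74-fold higher intensity, with an adjusted p of 5.18e-09 over 12 arrays and 0.0518 over 5 samples. CR kidneys differed from young kidneys by 2.91 ± 0.20, with an adjusted p of 1.28e-08 over 12 arrays and 0.0301 over 5 samples. All CR arrays lay below all AL arrays, but the difference of -0.22 ± 0.25 did not pass (adjusted p = 0.217). With each array scaled to its median in place of quantile normalisation, that difference was -0.40 and passed (adjusted p = 0.0191), while the median over all probes moved to -0.06.

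Ccl19, which shares Ccr7 with Ccl21, had the same order of groups. Its intensity was 9871, 9025, 9217 and 8323 on the CR arrays, 10840, 10920, 10160 and 10540 on the AL arrays, and 2541, 2702, 2169 and 2523 on the young arrays. No array of one group overlapped with another group's range, and the spread within each group was small beside the gap between old and young. AL kidneys were 4.29-fold above young kidneys, a log2 difference of 2.10 ± 0.21, with an adjusted p of 1.17e-08 over 12 arrays and 0.0621 over 5 samples. CR kidneys were 3.67-fold above young kidneys (1.88 ± 0.17), with an adjusted p of 3.94e-08 over 12 arrays and 0.0359 over 5 samples. CR and AL kidneys differed by -0.22 ± 0.21, which did not pass (adjusted p = 0.0975).

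Cxcl13, the B cell ligand, did not share the pattern of Ccl19 and Ccl21. Its intensity was 1130, 1041, 1027 and 798.3 on the CR arrays, 652.8, 656.9, 667.4 and 532.2 on the AL arrays, and 640.2, 671.8, 795.4 and 760.2 on the young arrays. All CR arrays were above all AL arrays, whereas the AL and young arrays overlapped. CR kidneys were 1.59-fold above AL kidneys (0.67 ± 0.24), with an adjusted p of 0.00457 over 12 arrays and 1 over 5 samples. The difference was 0.53 among the arrays of slide series 1, and the call was lost with the slide series as a block (0.53, adjusted p = 0.0532) and without CR arrays 1 and 3 (0.55, adjusted p = 0.056). CR kidneys exceeded young kidneys by 0.47 ± 0.19 (adjusted p = 0.00898 over 12 arrays and 0.233 over 5 samples), but by 0.16 with array-median scaling (adjusted p = 0.281) and by 0.36 without CR arrays 1 and 3 (adjusted p = 0.094). AL kidneys differed from young kidneys by -0.19 ± 0.23, which did not pass.

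The stromal ligand Cxcl12 did not pass in any comparison. It read 7698, 7281, 7644 and 5848 on the CR arrays, 7492, 6608, 7640 and 6777 on the AL arrays, and 6336, 7604, 8227 and 8997 on the young arrays, and the 3 ranges overlapped. The differences were -0.01 ± 0.24 between CR and AL, -0.12 ± 0.24 between AL and young, and -0.13 ± 0.20 between CR and young kidneys, each within its SE. With array-median scaling the last 2 became -0.71 (adjusted p = 0.000411) and -0.92 (adjusted p = 6.52e-05) and passed, while the median over all probes moved to -0.22 between AL and young and to -0.26 between CR and young kidneys.

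Among the 10 ligands, Ccl5 was the one for which all 3 differences passed over 12 arrays, with CR kidneys between AL and young kidneys. It read 2908, 2852, 3090 and 3059 on the CR arrays, 5831, 5531, 5517 and 6042 on the AL arrays, and 986, 896.4, 694.7 and 733.4 on the young arrays. The 3 groups did not overlap. AL kidneys were 6.99-fold above young kidneys (2.81 ± 0.25), with an adjusted p of 9.96e-09 over 12 arrays and 0.0559 over 5 samples. CR kidneys were at 0.52 times the intensity of AL kidneys (-0.94 ± 0.25), with an adjusted p of 0.000218 over 12 arrays and 0.805 over 5 samples. The 2 CR samples were both below the AL sample, CR arrays 1 and 3 by 0.93 and CR arrays 2 and 4 by 0.95 on the log2 scale, and the difference was -0.90 among the arrays of slide series 1. CR kidneys were 3.63-fold above young kidneys (1.86 ± 0.20), with an adjusted p of 2.57e-07 over 12 arrays and 0.0484 over 5 samples.

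Ccl2, the monocyte ligand, rose in both old groups. Its intensity was 2013, 1664, 1868 and 1514 on the CR arrays, 1357, 1354, 1328 and 1491 on the AL arrays, and 364.5, 426, 574.2 and 662.1 on the young arrays. Each CR array was above each AL array, and young arrays 3 and 4 were above young arrays 1 and 2. AL kidneys were 2.80-fold above young kidneys (1.49 ± 0.34; adjusted p = 4.26e-05 over 12 arrays and 0.166 over 5 samples). CR kidneys were 3.56-fold above young kidneys (1.83 ± 0.28; adjusted p = 1.01e-05 over 12 arrays and 0.0676 over 5 samples). The difference between CR and AL kidneys, 0.34 ± 0.34, did not pass (adjusted p = 0.216).

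Cxcl10, the interferon-induced ligand, rose in AL kidneys by less. It read 309.1, 299.8, 261 and 294.8 on the CR arrays, 372.5, 377.5, 329.2 and 321.8 on the AL arrays, and 200.6, 186.9, 282.3 and 282.8 on the young arrays. The CR range overlapped with that of young kidneys, and all AL arrays were above all others. AL kidneys were 1.49-fold above young kidneys (0.58 ± 0.29; adjusted p = 0.00584 over 12 arrays and 0.379 over 5 samples). That difference was 0.85 against young arrays 1 and 2 and 0.31 against young arrays 3 and 4. CR kidneys differed from AL kidneys by -0.27 ± 0.29 (adjusted p = 0.251) and from young kidneys by 0.31 ± 0.24 (adjusted p = 0.0878), neither of which passed. The difference between CR and young kidneys passed without young array 3 or 4 (0.40 each, adjusted p = 0.0336 and 0.0311).

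Cx3cl1, the membrane-bound ligand, did not pass in any comparison either. It read 6738, 5941, 6120 and 6029 on the CR arrays, 6223, 6506, 6042 and 6031 on the AL arrays, and 6879, 6861, 6538 and 6317 on the young arrays, with overlapping ranges. The differences were 0.00 ± 0.20 between CR and AL, -0.10 ± 0.20 between AL and young, and -0.10 ± 0.16 between CR and young kidneys. They became -0.20 (not passed), -0.66 (adjusted p = 0.00445) and -0.86 (adjusted p = 0.00082) with array-median scaling.

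Ccl20 and Cxcl1 had the largest gaps between the 2 young samples among the 10 ligands, ahead of Ccl2, Cxcl10 and Ccl5. For all 10 ligands the 2 pairs of young arrays did not overlap. On its first probe Ccl20 read 363.7, 376.4 and 336.2 on CR arrays 1, 3 and 4, 510.6, 561.3, 554 and 579.1 on the AL arrays, and 409.6, 354.3, 134.3 and 96.79 on the young arrays. On its second probe it read 284.4, 219.7, 308 and 217.5 on the CR arrays, 448.4, 408.2, 447.5 and 423.2 on the AL arrays, and 260, 237.4, 116.1 and 102 on the young arrays. Both probes gave the same picture: all AL arrays were above all others, and young arrays 3 and 4 were far below young arrays 1 and 2, at 0.299 times their intensity on the first probe and 0.438 times on the second. AL kidneys differed from young kidneys by 1.40 ± 0.72 on the first probe (adjusted p = 0.0155 over 12 arrays and 0.39 over 5 samples) and by 1.39 ± 0.54 on the second (adjusted p = 0.00193 and 0.301). The size rests on young arrays 3 and 4: on the first probe AL kidneys were 0.53 above young arrays 1 and 2 and 2.27 above young arrays 3 and 4. CR and AL kidneys differed by -0.62 ± 0.72 and -0.76 ± 0.54 on the 2 probes, which did not pass over 12 arrays (adjusted p = 0.401 and 0.0965). The same differences passed when either young sample was left out of the shared fit, for the first probe with -0.61 (adjusted p = 0.00355 without young arrays 1 and 2) and -0.61 (adjusted p = 0.000629 without young arrays 3 and 4). CR and young kidneys differed by 0.78 ± 0.59 and 0.63 ± 0.44, which did not pass, but the first probe passed without young array 1 (1.10, adjusted p = 0.0438) and the second without young array 1 or 2 (adjusted p = 0.0229 and 0.0392).

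Cxcl1 read 194.7, 174.5, 207.5 and 152.5 on the CR arrays, 211.4, 185.8, 203.1 and 189.3 on the AL arrays, and 175.4, 179.1, 100.1 and 104.3 on the young arrays. Young arrays 1 and 2 were within the range of the CR arrays and just below that of the AL arrays, and young arrays 3 and 4 were below all others. The AL kidneys' difference of 0.55 ± 0.39 from young kidneys (adjusted p = 0.0343 over 12 arrays and 0.493 over 5 samples) was 0.15 against young arrays 1 and 2 and 0.95 against young arrays 3 and 4. It lost its call when any single AL array was left out (0.52 to 0.58, adjusted p = 0.0539 to 0.0789), when young array 3 or 4 was left out (adjusted p = 0.083 and 0.0821), and when both were (0.15, adjusted p = 0.272). CR kidneys did not differ beyond the threshold from AL kidneys (-0.12 ± 0.39) or from young kidneys (0.43 ± 0.32, adjusted p = 0.0903), although the last passed without young array 1 or 2 (adjusted p = 0.0401 and 0.0325). The gap between the 2 young samples was not limited to these genes: its median size over all tested probes was 0.32 on the log2 scale, and 10% of probes had a gap of at least 1.

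**Figure D2:**
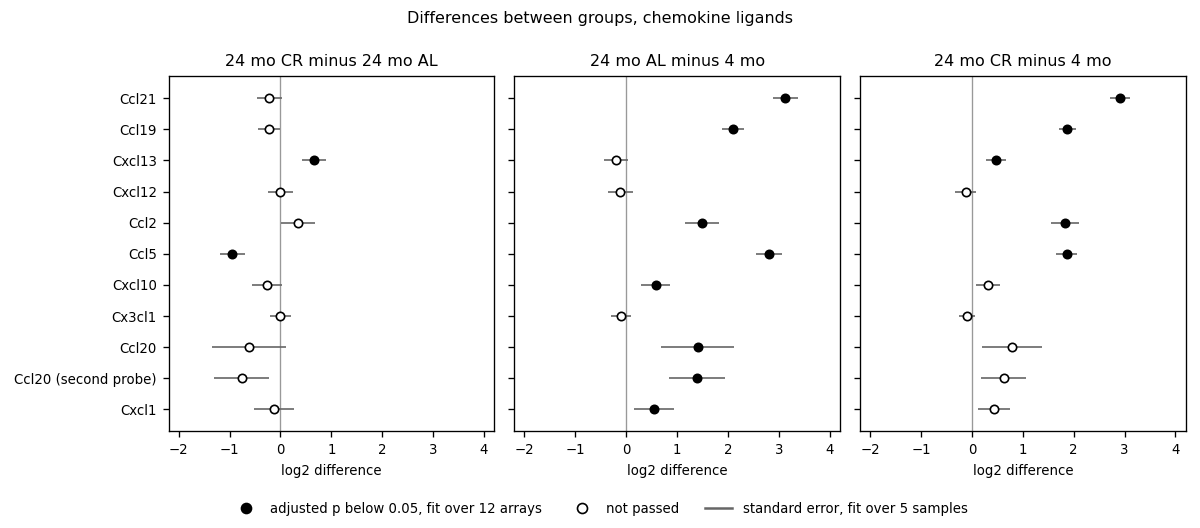
Log2 difference (x axis) of the 11 probes of the chemokine ligands between CR and AL, AL and young, and CR and young kidneys, with filled points for an adjusted p below 0.05 over 12 arrays, open points for the others, and bars of 1 SE from the fit over 5 samples. Ccl21, Ccl5, Ccl19 and Ccl2 lie furthest to the right in both comparisons with young kidneys, and the bars of Ccl20 are the widest.

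**Figure D3:**
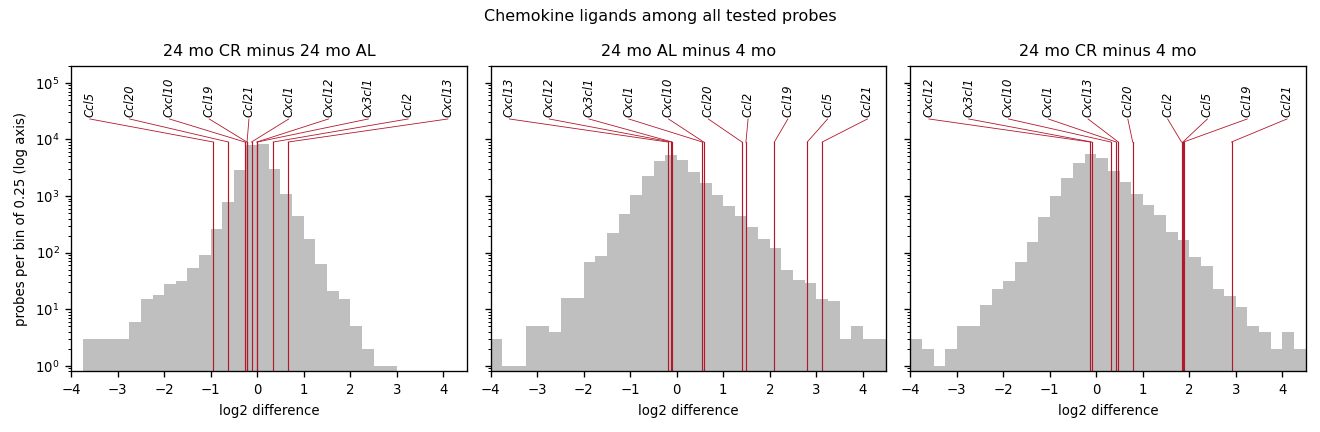
Number of tested probes (y axis, log scale) by log2 difference in bins of 0.25 for the 3 comparisons, with red lines at the main probe of each chemokine ligand; probes beyond the x axis are not drawn. Ccl21 and Ccl5 lie in the right tail between AL and young kidneys, and Cxcl12, Cxcl13 and Cx3cl1 near the centre.

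Slide series 1 held 2 CR arrays and all AL arrays, and slide series 2 held the other 2 CR arrays and all young arrays. Among the arrays of series 2, CR kidneys exceeded young kidneys by 2.85 for Ccl21, 1.93 for Ccl19, 1.81 for Ccl5 and 1.89 for Ccl2. These are close to the values over all arrays. With the slide series as a block, 4 ligands were called between AL and young kidneys: the calls of Ccl20 (1.43, adjusted p = 0.275), Cxcl10 (0.71, adjusted p = 0.081) and Cxcl1 (0.60, adjusted p = 0.263) were lost. With array-median scaling the split between AL and young kidneys was 7 ligands higher and 3 lower, in place of 7 and 0, and between CR and young kidneys it was 4 higher and 2 lower, in place of 5 and 0. Between CR and AL kidneys it was 1 higher and 2 lower, in place of 1 and 1.

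The receptors were measured from a list of 21, of which 16 were on the array and 11 were tested. Of all named genes, 24.9% were called higher and 25.4% lower between AL and young kidneys. The shares were 5.61% and 6.72% between CR and AL kidneys, and 22% and 24.8% between CR and young kidneys. Between AL and young kidneys 3 receptor genes rose and 5 fell, with a median difference of -0.07; without AL array 2 the count was 5 (3 higher and 2 lower), and over 5 samples 1 was called. Ccr6, the receptor of Ccl20, read 691.5, 810.2, 704.4 and 657.4 on the CR arrays, 879, 822.9, 734 and 821.5 on the AL arrays, and 107.4, 100.5, 91.02 and 89.04 on the young arrays. Old and young arrays were far apart, with a difference of 3.07 ± 0.21 between AL and young kidneys (adjusted p = 1.96e-09 over 12 arrays and 0.0475 over 5 samples) and of 2.88 ± 0.17 between CR and young kidneys (adjusted p = 3.95e-09 and 0.0253). Ccr7, the receptor of Ccl19 and Ccl21, read 344.4, 339.3, 320.2 and 331.5 on the CR arrays, 319.4, 320.8, 324.5 and 337.1 on the AL arrays, and 158.8, 144.4, 99.85 and 99.66 on the young arrays. It rose by 1.40 ± 0.31 in AL kidneys (adjusted p = 1.64e-05 over 12 arrays and 0.156 over 5 samples) and by 1.44 ± 0.25 in CR kidneys (adjusted p = 1.52e-05 and 0.0796), whereas a second Ccr7 probe was not above background on any array.

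Cxcr4, the receptor of Cxcl12, read 445.7, 478.5, 480.2 and 446.7 on the CR arrays, 669.9, 659.2, 688.4 and 682.6 on the AL arrays, and 474.7, 444.4, 351.6 and 390 on the young arrays. The AL arrays stood above both other groups, which overlapped. Cxcr4 was 0.71 ± 0.23 higher in AL than in young kidneys (adjusted p = 9.4e-05 over 12 arrays and 0.244 over 5 samples) and fell by 0.55 in CR relative to AL kidneys (SE 0.23; adjusted p = 0.00247 and 1). Of the 5 receptors called lower in AL than in young kidneys, Ackr4, a scavenger of Ccl19 and Ccl21, fell by 0.42 (adjusted p = 0.00538 over 12 arrays and 0.397 over 5 samples) and Cxcr3, the receptor of Cxcl10, by 0.25 (adjusted p = 0.0268 and 0.548). Another 2, Ccr10, by 0.97 (adjusted p = 4.92e-05 and 0.195), and Ccr9, by 0.23 (adjusted p = 0.0247 and 0.559), bind none of the 10 ligands and are named after their values were seen. The fifth, Ccr2, the receptor of Ccl2, was above background on 1 AL array, 1 young array and 4 CR arrays and entered the test through CR, so its call between AL and young kidneys compares groups mostly at background and no size is given. Between CR and AL kidneys 2 receptors rose (Ackr4, by 0.37 ± 0.22, adjusted p = 0.032 over 12 arrays and 1 over 5 samples, and Ccr9) and 1 fell (Cxcr4), and over 5 samples limma called 0, with 0 at an unadjusted p below 0.05. Both rises were lost with array-median scaling, with the slide series as a block, within slide series 1, and without CR array 1, 2 or 3 or AL array 2 in turn, each of which left 1 receptor called. Between CR and young kidneys 2 rose (Ccr6 and Ccr7) and 2 fell (Cxcr3, by 0.41, and Ccr10). Cx3cr1, Ackr2 and Ackr3 did not pass in any comparison. Cxcr5, the receptor of Cxcl13, and Cxcr1, Cxcr2 and Ccr1 were not above background on any array, so their levels have only an upper bound.

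**Figure D4:**
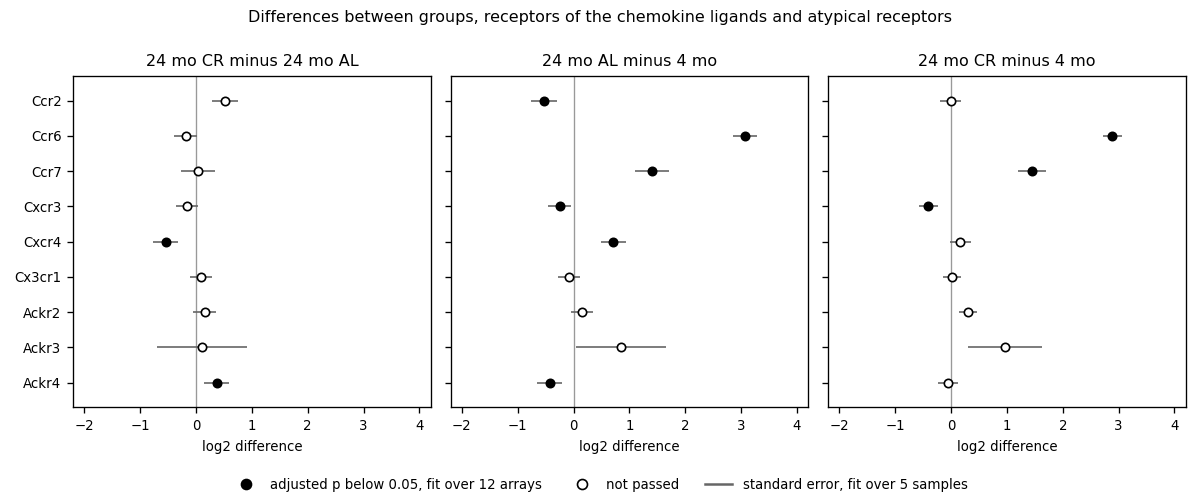
Log2 difference (x axis) of receptors of the chemokine ligands and of 3 atypical receptors between CR and AL, AL and young, and CR and young kidneys. They are drawn as for the ligands, with receptors that were not tested left out. Ccr2 is drawn, although its AL and young arrays were mostly at background. Ccr6 and Ccr7 lie to the right in both comparisons with young kidneys, and Cxcr4 is lower in CR than in AL kidneys.

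Other chemokine ligands were counted from a list of 25, of which 20 were on the array and 16 were tested. Between AL and young kidneys 7 rose and 3 fell, with a median of 0.39, where 24.9% of named genes were higher and 25.4% lower. Between CR and young kidneys 7 rose and 2 fell, with a median of 0.25, where 22% of named genes were higher and 24.8% lower. Over 5 samples limma called 0 of the 16 in either comparison, with 4 and 6 at an unadjusted p below 0.05. Ccl6 was 3.24-fold higher in AL than in young kidneys (1.70 ± 0.25, adjusted p = 3.3e-07 over 12 arrays and 0.0875 over 5 samples) and 2.64-fold higher in CR than in young kidneys. Ccl17, a ligand of Ccr4 that lies beside Cx3cl1, was 3.12-fold higher in AL than in young kidneys (1.64 ± 0.25, adjusted p = 9.74e-07 and 0.0928), and a second probe gave 1.67. Ccl7, which lies beside Ccl2 and also binds Ccr2, rose by 0.46 ± 0.27 in AL kidneys (adjusted p = 0.0135 and 0.434) and by 0.61 ± 0.22 in CR kidneys (adjusted p = 0.00283 and 0.195), less than Ccl2 did. Cxcl16, the ligand of Cxcr6, rose by 0.75 ± 0.20 in AL kidneys on its main probe (adjusted p = 3.24e-05 and 0.204) and was 4.01-fold higher on a second one (adjusted p = 0.00304 and 0.315), for which young arrays 1 and 2 lay below young arrays 3 and 4. A second Ccl6 probe was not above background on any array. Between CR and AL kidneys 1 of the 16 rose and 1 fell, near the shares of all named genes (5.61% higher and 6.72% lower). They were Cxcl9, which rose, and Cxcl11, which fell, neighbours of Cxcl10 that also bind Cxcr3.

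Cxcl9 read 744.9, 807.2, 742.3 and 878.3 on the CR arrays, 405.6, 409.4, 396 and 468.8 on the AL arrays, and 454.9, 435.1, 301.4 and 320.7 on the young arrays. CR arrays were above all others, a difference of 0.92 ± 0.29 from AL kidneys (adjusted p = 0.00124 over 12 arrays and 0.922 over 5 samples) and of 1.09 ± 0.24 from young kidneys (adjusted p = 8.49e-05 and 0.103). Cxcl11 on its main probe read 1048, 876.5, 929.8 and 986.9 on the CR arrays, 1515, 1577, 1597 and 1599 on the AL arrays, and 1386, 1234, 892.9 and 967.2 on the young arrays. It was 0.71 lower in CR than in AL kidneys (log2 difference -0.71 ± 0.28, adjusted p = 0.00377 over 12 arrays and 1 over 5 samples), and its second probe gave -0.84 ± 0.20 (adjusted p = 9.09e-05 and 0.769). The 2 probes of Cxcl11 differed in sign between CR and young kidneys (-0.20 and 0.04, neither passed).

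Among 14 listed proteases and inducers, 12 were on the array and 11 tested. Of these, 4 rose and 2 fell in AL relative to young kidneys over 12 arrays, where 24.9% of named genes were higher and 25.4% lower. None of the 11 kept a call in this comparison over 5 samples. Lymphotoxin beta (Ltb), which in mouse lymphoid stroma induces Ccl19, Ccl21 and Cxcl13, read 509.9, 488.2, 469.2 and 514.7 on the CR arrays, 480.6, 544.8, 437.8 and 499.2 on the AL arrays, and 124.1, 162, 142.9 and 134 on the young arrays. The CR and AL ranges overlapped and both were far above that of young kidneys. It rose by 1.80 ± 0.19 in AL kidneys (adjusted p = 1.17e-07 over 12 arrays and 0.0621 over 5 samples) and by 1.82 ± 0.16 in CR kidneys (adjusted p = 1.27e-07 and 0.0348). Lta rose by 1.17 ± 0.35 in AL and by 1.52 ± 0.29 in CR kidneys (adjusted p = 0.000311 and 5.06e-05 over 12 arrays). Neither rise was called over 5 samples. Ltbr, the receptor of Ltb and Lta, did not pass on its main probe. A second Ltbr probe was 1.11 higher in CR than in young kidneys (adjusted p = 0.0242 over 12 arrays and 0.298 over 5 samples). It did not pass between AL and young kidneys. The NF-κB subunits Nfkb1 and Rela rose in AL kidneys by 0.81 ± 0.34 (adjusted p = 0.00245 over 12 arrays and 0.324 over 5 samples) and 0.68 ± 0.23 (adjusted p = 0.000125 and 0.257). Il1b, a cytokine that induces Ccl20 and Cxcl1, read 627.8, 541.9, 585.1 and 548.1 on the CR arrays, 272.9, 314.7, 289.2 and 299.9 on the AL arrays, and 746.2, 799.6, 673.2 and 631.3 on the young arrays. It fell by 1.27 in AL relative to young kidneys (adjusted p = 1.07e-06 over 12 arrays and 0.117 over 5 samples) and was 0.97 ± 0.22 higher in CR than in AL kidneys (adjusted p = 5.5e-05 and 0.76). The other gene that fell in AL kidneys was Dpp4, a protease that trims Cxcl10 and Cxcl12, by 0.37 on its main probe (adjusted p = 0.000914 over 12 arrays). That fall was not called over 5 samples. The other probes of Dpp4 gave -0.30 (adjusted p = 0.0072 over 12 arrays) and -0.13 (not passed). Adam10 and Adam17, which shed Cx3cl1, did not pass in any comparison, and the 3 probes of Tnf disagreed in direction. Ifng was not above background on any array.

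Markers of leukocytes and of lymphatic vessels were measured on the same arrays. Over 12 arrays 24.9% of named genes were higher in AL and 22% higher in CR than in young kidneys. The summed intensity of 7 of 8 T cell markers was 6018 to 6459 in CR, 7135 to 7354 in AL and 1482 to 2161 in young kidneys, and all 7 rose in both old groups relative to young kidneys over 12 arrays; Cd8a was not above background on any array. Over 5 samples the calls between AL and young kidneys were lost. Between CR and young kidneys 1 of the 7 was called in that fit, where limma called 0.91% of all probes. The sum of 3 B cell markers (Cd79b, Ms4a1 and Blk) was 1966 to 2154 in CR, 2127 to 2227 in AL and 340.1 to 387.7 in young kidneys, and Cd79b and Blk rose in both old groups over 12 arrays. Ms4a1 was not above background on any young array and entered the test through the old groups. It is among the genes counted next, and its calls compare old kidneys with a group at background. Over 5 samples the calls between AL and young kidneys were lost, and 2 of the 3 were called between CR and young kidneys. The sum of 9 macrophage and myeloid markers was 20980 to 21730 in CR, 19310 to 19710 in AL and 10630 to 11700 in young kidneys, and Ptprc, Cd68, Cd14, Csf1r and Aif1 rose in both old groups over 12 arrays. Adgre1 rose and Itgam fell in CR relative to young kidneys, Cd163 passed in no comparison, and Mrc1 was not above background on any young array. Mrc1 entered the test through the old groups. Over 5 samples the calls between AL and young kidneys were lost, and 1 of the 9 (Ptprc) was called between CR and young kidneys. The sum of 4 lymphatic endothelial markers was 1218 to 1362 in CR, 1583 to 1667 in AL and 847.1 to 1059 in young kidneys. Lyve1 and Flt4 rose in both old groups over 12 arrays, and Prox1 did not pass. Pdpn was not above background on any young array and entered the test through the old groups. Over 5 samples the calls of these lymphatic markers were lost in both comparisons. The sum of the neutrophil markers S100a8 and S100a9 was 355 to 381.5 in CR, 933.2 to 1037 in AL and 192.3 to 241.6 in young kidneys. S100a8 was above background on 1 young array and entered the test through the old groups, and Mpo was not above background on any array. Only 1 follicular dendritic cell marker, Cr2, was summed; it was near background, at 47.95 to 64.55 in CR, 38.05 to 65.5 in AL and 7.7 to 42.84 in young kidneys. The sum of 3 of 4 adipocyte markers was 1655 to 1780 in CR, 1869 to 2115 in AL and 4567 to 6537 in young kidneys. It was carried by Cidec, which fell in both old groups. Adipoq differed by -0.01 between AL and young kidneys (not passed). Between CR and young kidneys Adipoq differed by -0.38 (adjusted p = 0.0283 over 12 arrays and 0.239 over 5 samples). Lep was not above background on any young array. The part of all these cell markers in the ligands' differences was not tested.

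For each ligand whose group means spanned at least 1 on the log2 scale, the 3 named genes with the most similar pattern were found among 9884 genes, by the mean absolute difference between the 2 genes' deviations from their own means over the 12 arrays. For Ccl20, CR array 2 was missing and was left out of its mean and distances. The 12 arrays count as 5 samples, and this is a description. Nearest to Ccl21 were Cd44 (0.13), Ccr6 (0.16) and Fcrl2 (0.17), where the median gene was at 1.34. Nearest to Ccl19 were Lrg1 (0.09), Spib (0.10) and Podnl1 (0.11), with a median of 0.89. Nearest to Ccl5 were Cfd (0.21), Siglec1 (0.22) and Gpnmb (0.23), with a median of 1.04. For Ccl2 they were Col16a1 (0.13), Rbm3 (0.14) and RT1-Db1 (0.15), with a median of 0.74, and for Ccl20 they were Hs3st2 (0.17), Cd69 (0.19) and Prg2 (0.21), with a median of 0.65.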

How the data were processed

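Each of the 12 arrays (CodeLink Rat Whole Genome, 1 colour) was deposited as the scanner report of CodeLink Expression Analysis 4.1.0.29054, per the file headers, with a background-subtracted spot intensity, a second intensity divided by the array's median (trim of 20%) and a quality flag for each spot. A deposited table of values for the whole series gives, for each probe, the ratio of its median-scaled intensity to a constant of its own; what the constant is was not given in the sources used here, and the table served as an alternative only. Contaminated, irregular and masked spots were set to missing, intensities were quantile-normalised, floored at 7.7 (the middle of the negative control spots) and put on the log2 scale. Probes above background on at least 4 arrays, with at least 2 values in each group, were tested (25398 of 33849, 75%), with limma 3.58.1 (R 4.3.3; lmFit and eBayes, 1 mean per group over 12 arrays, two-sided, Benjamini-Hochberg over all tested probes, threshold 0.05). The number of arrays limits the precision. A gene is its tested probe with the highest mean intensity. Gene symbols were taken from the platform's list (16878 probes), from an accession (183) or from the probe's description (21); 182 probes had several symbols and 16585 none. All 10 ligands are reported on every probe; of the listed receptors, ligands, proteases, inducers and cell markers, those tested may be named, while of the receptors of no listed ligand, set down for counts only, Ccr9 and Ccr10 were named after their values were seen. A gene of the receptor list is not reported here and is left out of its counts. Members and lists were chosen with earlier results of these data known. Arrays of a group whose differences stayed within the largest spread of repeat spots on any array were averaged for a second fit over 5 samples. Same-numbered arrays of different groups did not deviate together (correlations of -0.178 to 0.157), so replicate numbers were not taken as pairs. The procedure was run on simulated data with independent noise on each of the 12 arrays, so that run cannot speak to sets of near-identical arrays. Alternatives were array-median scaling, the deposited table, another floor (1), no filter on low probes, flagged values kept, the mean of a gene's probes, blocks for slide series and replicate number, and leaving out arrays. Chosen after seeing the data were fits within a slide series and without either CR sample.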

Additional observations from a re-analysis of the deposited data

Results flagged for a closer look

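Of 32 groups of 4 arrays examined for the ligands and their probes, 2 had an array far from the other 3, where chance gives about 1 group in 20. For Ccl21, AL array 1 had a log2 intensity of 12.949, above the other AL arrays at 12.794 to 12.796. For Cxcl13, AL array 4 had a log2 intensity of 9.056, below the other AL arrays at 9.35 to 9.382. The AL arrays otherwise differed from each other by no more than repeat spots did on CR array 4, where those spread most.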

How the results depend on the processing

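With the arrays counted as 5 samples, 29 probes, 0 ligand genes (0 of their probes), 1 receptor gene and 0 other ligand genes were called between AL and young kidneys, 0 of each between CR and AL kidneys (0 probes, 0 ligand genes, 0 receptor genes and 0 other ligand genes), and 231 probes, 3 ligand genes (3 probes), 1 receptor gene and 0 other ligand genes between CR and young kidneys; this fit has fewer samples by construction. With the slide series as a block the calls between AL and young kidneys were 3901 probes, 4 ligand genes (4 probes), 4 receptor genes and 4 other ligand genes, and between CR and AL kidneys 1479 probes, 1 ligand gene (1 probe) and 1 receptor gene. Within slide series 1, CR against AL kidneys gave 4 ligand probes (3 genes), 1 receptor gene and 6 other ligand genes, and within slide series 2, CR against young kidneys gave 3453 probes and 4 other ligand genes; both fits have fewer arrays. Replicate numbers do not pair the samples; with the replicate block 1 receptor gene was called between CR and AL kidneys, in place of 3, and the ligand counts stayed at 7, 2 and 5. Array-median scaling and the deposited table each left 1 receptor gene called between CR and AL kidneys, the deposited table gave 2227 probes there, and the cause was not tested. With array-median scaling the split of called probes was 3896 higher and 9853 lower between AL and young kidneys (5318 and 6886 with quantile normalisation), 1019 and 1338 between CR and AL kidneys (1878 and 1519), and 3382 and 10661 between CR and young kidneys (5015 and 6241).

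Leaving out either young sample raised the calls between CR and AL kidneys, whose spread is estimated from all groups: to 7604 probes, 7 ligand probes, 6 ligand genes and 6 other ligand genes without young arrays 1 and 2, and to 7252 probes, 7 ligand probes, 6 ligand genes and 6 other ligand genes without young arrays 3 and 4. Without CR arrays 1 and 3 the same comparison called 1803 probes, 1 ligand gene (1 probe) and 1 receptor gene, and without CR arrays 2 and 4 it called 1565 probes and 1 receptor gene. Leaving out single arrays, the calls between AL and young kidneys ranged from 10183 to 13313 probes, 7 to 8 ligand probes, 6 to 7 ligand genes, 5 to 8 receptor genes and 9 to 10 other ligand genes. Between CR and AL kidneys they ranged from 2097 to 3880 probes, 2 to 3 ligand probes, 2 ligand genes, 1 to 3 receptor genes and 2 to 3 other ligand genes, the probe count falling by over 1.5 times without CR array 2 (2138) or AL array 1, 2 or 3 (2221, 2097 and 2098). Between CR and young kidneys they ranged from 9515 to 12672 probes, 5 to 8 ligand probes, 5 to 7 ligand genes (8 ligand probes without young array 1), 4 to 6 receptor genes and 8 to 9 other ligand genes.

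Signs turned only for differences that did not pass, 19 in all. For Cx3cl1 between CR and AL kidneys (0.00) the values were -0.198 with array-median scaling, -0.002 with flagged values kept, -0.196 with the deposited table, -0.029 with the slide block and within slide series 1, and -0.051 without CR arrays 1 and 3; leaving out single arrays they ranged from -0.04 to 0.023. For Cxcl12 between CR and AL kidneys they were 0.109 without CR arrays 2 and 4, and from -0.05 to 0.084 leaving out single arrays. Cxcl12 gave 0.044 (slide block) and 0.034 (without young arrays 3 and 4) between AL and young kidneys, and 0.027 (without young arrays 3 and 4) between CR and young kidneys. Cxcl13 between AL and young kidneys gave 0.068 with the slide block, Ccl20 between CR and young kidneys -0.088 without young arrays 3 and 4, and Cxcl1 between CR and AL kidneys 0.028 without CR arrays 2 and 4. No called difference changed direction under the alternatives run. The number of distinct samples, 1 of them AL, limits every comparison, and genes that were not above background have only a bound.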
